A study of Homo sapiens with 6 samples.

Results

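The TRIM genes encode the tripartite motif proteins, a large family of mostly RING-type ubiquitin ligases. They were taken as all rows whose symbol is TRIM followed by a number and at most 1 letter, which gave 70 of the 23245 rows with a gene symbol. RNA was profiled in L3.6pl cells, a line of human pancreatic carcinoma, with 3 libraries from ARID1A-deficient cells (titled ARID1Ako) and 3 libraries from parental cells with wild-type ARID1A. ARID1A is a subunit of SWI/SNF, the complex that moves nucleosomes on chromatin. Both groups grew in the same serum-containing medium and received no drug. The sources used here do not give how ARID1A was disrupted or whether the deficient cells are 1 clone, and no sample restores ARID1A, so loss of ARID1A and anything else in which the lines differ cannot be told apart. The labels do not say whether the 3 samples of a group came from separate cultures, so p-values measure the spread between these samples, which may be technical.

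A typical TRIM protein joins a RING domain, which recruits a ubiquitin-conjugating enzyme, to B-box zinc fingers and a coiled coil through which the proteins pair, and a variable C-terminal part selects the target. Members act in antiviral defence, transcriptional repression, cell division, muscle and nerve, and several are induced by interferon. TRIM29, also known as ATDC, has B-boxes but no RING domain, is abundant in stratified epithelia, and is known for raised levels in pancreatic cancer.

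ARID1A itself measured 3.55, 3.28 and 3.61 FPKM in ARID1A-deficient libraries 1, 2 and 3, against 11.8, 6.76 and 9.42 FPKM in parental libraries 1, 2 and 3, so the transcript was lower but still measurable. FPKM are fragments scaled to transcript length and library. The values of a library summed to between 576084 and 792187 FPKM. The sources used here give no fragment totals. The spacing of the lowest values put the relative depth at 0.732 to 1.28 in ARID1A-deficient libraries and 0.785 to 1.03 in parental libraries, if values are scaled to the library total. Ductal markers were present: of 10, 8 were testable, KRT7 averaged 2142 and 2892 FPKM and EPCAM 197 and 254 FPKM in ARID1A-deficient and parental cells, while CFTR was listed at 0. SOX9 alone of these passed the test, higher in ARID1A-deficient cells, but 6 of the 8 had a negative log2 fold change, and the median was -0.42. At an unadjusted p under 0.05 there were 6, beside 29.5% of all tested rows. The count of lower ductal markers was 0 as fitted, 3 without parental library 2 and 5 with quantile normalization. It was 6 with a length covariate, the slope of each library on transcript length. Over all 12826 tested rows the lower count was 1040, 2097, 1248 and 2295 in the same order.

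Markers of other cell types were mostly near 0. Of 9 fibroblast markers, 3 collagen genes were testable and all were higher, and the list summed to 176 to 190 FPKM in ARID1A-deficient libraries and 21.3 to 24.2 FPKM in parental libraries, with DCN and LUM listed at 0 in all 6. Of 8 leukocyte markers 1 was testable and lower (CD68), and the sums were 5.98 to 7.77 and 8.51 to 9.87 FPKM, with PTPRC at 0.0147 FPKM or less on average. Of 6 endothelial markers 2 were testable and 1 was lower (PECAM1), with sums of 8.72 to 9.38 and 8.89 to 10.4 FPKM and KDR at 0.0132 FPKM or less on average. Most of these sums was CDH5, which averaged 7.62 and 7.08 FPKM and did not pass. Of 11 striated muscle markers 2 were testable and 1 was lower (TNNT3), with sums of 29.6 to 38.5 and 46.5 to 97.5 FPKM. Most of these sums was TNNT1, which averaged 33.7 and 63.8 FPKM and did not pass. TNNT3 averaged 0.143 and 4.62 FPKM. MYH7, MYOD1 and MYOG were listed at 0 in all libraries. The part of these markers in the TRIM results was not tested.

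Of the 70 TRIM genes, 22 were listed at 0 in every library, 13 were above 0 but below the mean of 0.5 FPKM needed for testing, and 35 were tested. TRIM6, with a mean of 0.503 FPKM, lay just inside that limit, and the next member down was TRIM46, with 0.229 FPKM. Among the tested genes 13 averaged at least 10 FPKM, 21 between 1 and 10 FPKM, and 1 less than 1 FPKM. Their median level was 8.19 FPKM, beside 10.3 FPKM for all 12826 tested rows. TRIM28 was by far the most abundant in both groups. The next by mean were TRIM7 (69.1 FPKM), TRIM41 (36.0 FPKM) and TRIM8 (28.4 FPKM) in ARID1A-deficient cells, and TRIM29 (100.9 FPKM), TRIM7 (78.1 FPKM) and TRIM41 (40.8 FPKM) in parental cells.

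**Figure D1:**
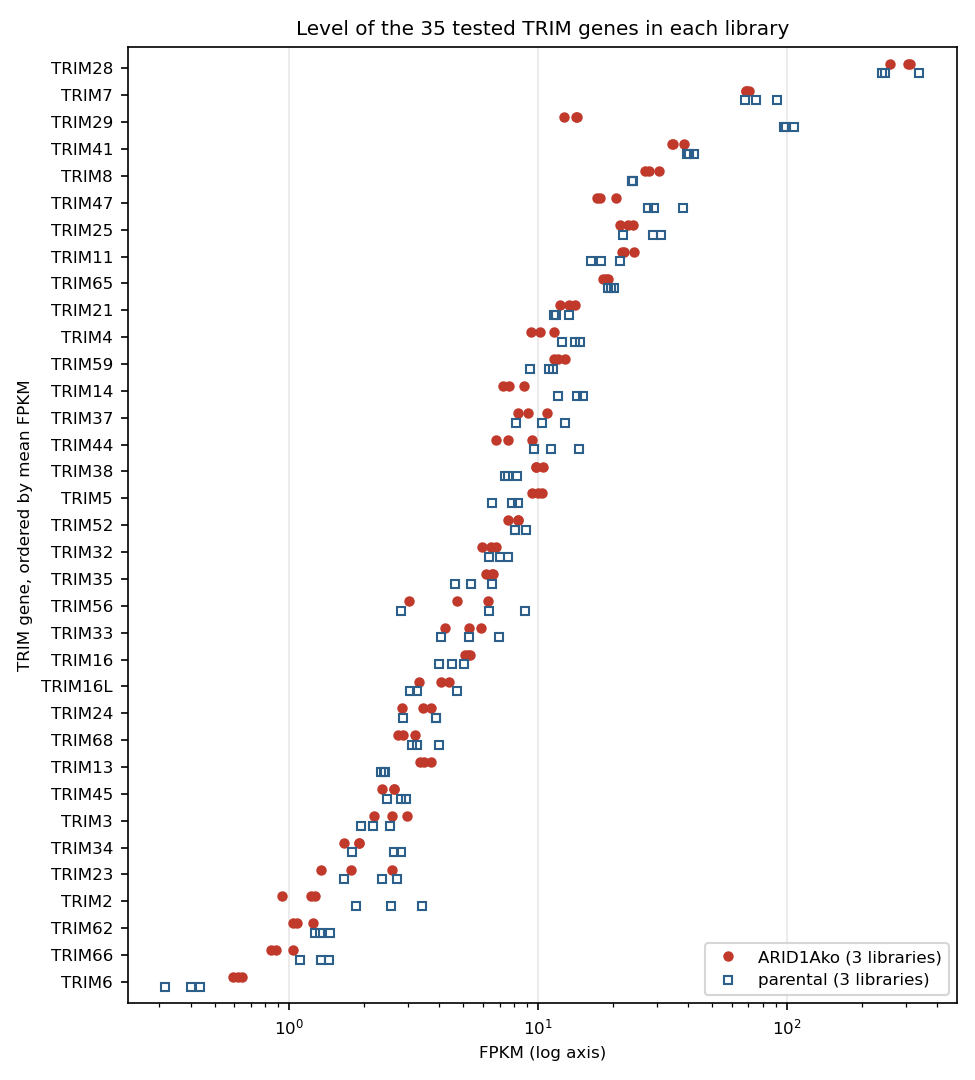
FPKM (horizontal log axis) of the 35 tested TRIM genes (vertical axis, ordered by mean), with 1 filled circle for each of 3 ARID1A-deficient libraries and 1 open square for each of 3 parental libraries. Levels ran between 0.317 FPKM for TRIM6 and 341 FPKM for TRIM28, and TRIM29 shows the widest gap between the groups.

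TRIM28 alone made up 40.7% to 46.2% of the summed FPKM of all members in ARID1A-deficient libraries and 32.7% to 40.7% in parental libraries. Without TRIM28, the members summed to 378, 364 and 381 FPKM in ARID1A-deficient libraries 1, 2 and 3, against 499, 497 and 489 FPKM in parental libraries 1, 2 and 3. These sums do not overlap, and most of the gap is the difference in TRIM29.

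Fitted with limma on log2(FPKM + 1) over all tested rows, 6 of 35 TRIM genes differed after Benjamini-Hochberg adjustment (17.1%), beside 15.9% of all tested rows. The share is thus near that of the whole transcriptome. TRIM29, TRIM14, TRIM47 and TRIM2 were lower in ARID1A-deficient cells, 4 of 35 beside 8.11% of all tested rows, and TRIM13 and TRIM38 were higher, 2 of 35 beside 7.82%. Groups did not overlap for 17 of the 35 (48.6%), beside 35.3% of all tested rows. At an unadjusted p under 0.05 there were 13 of 35, beside 29.5%. The median log2 fold change of the 35 was -0.08, with 13 above and 22 below 0, and that of all tested rows was -0.015. The median size of the difference was 0.18 on the log2 scale for TRIM genes and 0.20 for all tested rows. Without parental library 2 the lower members were 8, and without ARID1A-deficient library 1 or 2 they were 2. Over all tested rows the lower counts in these fits were 2097, 598 and 491, beside 1040 with every library. The higher members numbered 0 without any single library other than parental library 2. In those fits 531 to 774 of all tested rows were higher, beside 1003 with every library.

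**Figure D2:**
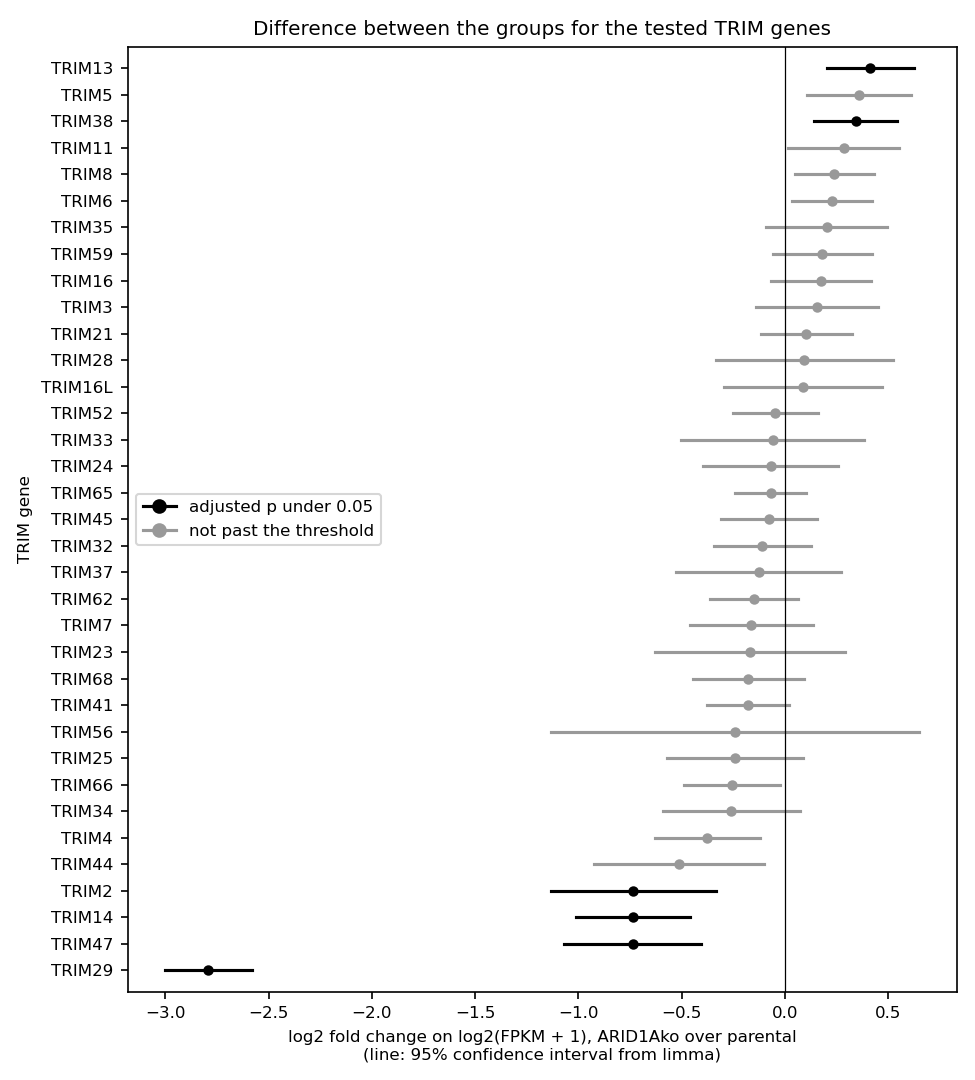
Log2 fold change of ARID1A-deficient over parental cells on the log2(FPKM + 1) scale (horizontal axis) for the 35 tested TRIM genes (vertical axis), with 95% confidence intervals from limma. Black marks the 6 genes past an adjusted p of 0.05 and grey the others, and TRIM29 lies at -2.79, far from the next gene at -0.74.

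TRIM29 measured 12.7, 14.3 and 14.1 FPKM in ARID1A-deficient libraries 1, 2 and 3, against 99.3, 106 and 97.1 FPKM in parental libraries 1, 2 and 3. Every ARID1A-deficient library lay far below every parental one, and the spread within each group was small. On average it reached 13.7 ± 0.882 and 100.9 ± 4.92 FPKM (SD, n = 3 each), 7.35-fold lower in ARID1A-deficient cells, with a log2 fold change of -2.79 (SE 0.09, 95% interval -3.00 to -2.58, limma adjusted p = 7.96e-06). With any 1 library left out the log2 fold change stayed between -2.82 and -2.74. In bulk RNA, fewer cells with the transcript and less of it per cell cannot be told apart. Of the 40 nearest tested genes on chromosome 11, 4 were higher and 3 lower, beside 7.82% and 8.11% of all tested rows. Their median log2 fold change was -0.02.

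Genes of basal and squamous epithelium, where TRIM29 is abundant, did not follow a single direction. Of 21 listed, 16 were tested, 5 rose, 2 fell and 9 did not pass (43.8% called, beside 15.9% of all tested rows), with a median log2 fold change of 0.16. KRT5, a keratin of basal cells, fell to 60.6, 67.9 and 67.7 FPKM in ARID1A-deficient libraries, against 191, 209 and 200.3 FPKM in parental libraries (limma adjusted p = 0.000156). KRT6A, a keratin of activated and squamous cells, rose to 16.7, 19.5 and 19.1 FPKM, against 1.25, 2.23 and 2.0 FPKM in parental libraries (limma adjusted p = 6.44e-05). PERP, a desmosomal p53 target, and KRT15 also rose, with log2 fold changes of 0.53 and 0.71. TP63, the transcription factor of basal cells, measured 17.8, 14.3 and 14.8 FPKM in ARID1A-deficient libraries, against 32.1, 18.7 and 27.2 FPKM in parental libraries. It did not pass (limma adjusted p = 0.0625). Its limma adjusted p was 0.000903 without parental library 2 and 0.096 to 0.20 without any other single library. The higher count lost members with any single library other than parental library 2 left out (2 or 3), while LAMB3 lost its call without parental library 3 or any 1 ARID1A-deficient library. Members past the threshold downwards numbered 4 without parental library 2, and 5 with the length covariate and without library 2 of both groups. Over all tested rows the lower counts in these settings were 2097, 2295 and 1867, beside 1040 as fitted.

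The members known for cell cycle, apoptosis and p53 roles had 8 of 11 tested, with TRIM29 lower, TRIM13 higher and 6 not past the threshold. The called share was 25.0% of these 8, beside 15.9% of all tested rows. TRIM13, a ubiquitin ligase anchored in the endoplasmic reticulum membrane, measured 3.72, 3.47 and 3.33 FPKM in ARID1A-deficient libraries, against 2.41, 2.41 and 2.32 FPKM in parental libraries. The groups did not overlap, and the gene was 1.47-fold higher, with a log2 fold change of 0.41, SE 0.09 and adjusted p 0.0221 in limma. The call ended without any single library other than parental library 2 (highest adjusted p = 0.109). Of the 40 nearest tested genes on chromosome 13, 10 were higher and 0 lower, beside 7.82% and 8.11% of all tested rows. Their median log2 fold change was 0.27. Their part in the result was not tested. DLEU2, a noncoding gene that overlaps TRIM13 on the other strand, averaged 1.26 ± 0.248 and 0.889 ± 0.222 FPKM in ARID1A-deficient and parental cells (SD, n = 3 each), without overlap (limma adjusted p = 0.24), and this library kit does not separate strands.

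TRIM8, a ligase linked to p53 stability, measured 26.9, 27.8 and 30.5 FPKM in ARID1A-deficient libraries, against 24.1, 23.8 and 23.9 FPKM in parental libraries. Its groups did not overlap, yet the limma adjusted p was 0.0962. TRIM11 had a log2 fold change of 0.28 (limma adjusted p = 0.149) and TRIM59, a membrane-bound member, 0.18 (0.294). TRIM37, a ligase that limits centriole assembly, averaged 9.39 ± 1.30 and 10.5 ± 2.34 FPKM in ARID1A-deficient and parental cells (SD, n = 3 each), and TRIM45 averaged 2.54 ± 0.163 and 2.74 ± 0.244 FPKM. TRIM35 had a log2 fold change of 0.20 (95% interval -0.09 to 0.50). TRIM17 and TRIM69 stayed below testing, at no more than 0.223 and 0.107 FPKM in any library, and TRIM39 was listed at 0.

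Of 14 antiviral and innate immune members, 11 were tested, with TRIM38 higher, TRIM14 lower and 9 not past the threshold, and a median log2 fold change of -0.17. The called share was 18.2%, near the 15.9% of all tested rows. Leaving out parental library 2 gave 4 lower members, while the lower count over all tested rows went from 1040 to 2097. TRIM14, which lacks a RING domain and acts as an adaptor of the mitochondrial RNA-sensing protein MAVS, measured 8.80, 7.24 and 7.61 FPKM in ARID1A-deficient libraries, against 15.1, 12 and 14.3 FPKM in parental libraries. All ARID1A-deficient values lay below all parental ones, 1.75-fold lower on average, with a log2 fold change of -0.74, SE 0.12 and adjusted p 0.00695 in limma. The call held with each library left out in turn (highest adjusted p = 0.0443). NANS, which overlaps TRIM14 on the other strand and averaged 166 ± 18.9 and 183 ± 48.2 FPKM in ARID1A-deficient and parental cells (SD, n = 3 each), did not pass (limma adjusted p = 0.762). TRIM14 and TRIM29 were the only members past the threshold under every alternative run.

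TRIM38, a ligase that dampens Toll-like receptor signalling, measured 10.5, 9.84 and 9.83 FPKM in ARID1A-deficient libraries, against 7.39, 7.55 and 8.24 FPKM in parental libraries. The groups did not overlap, and the log2 fold change was 0.34, SE 0.08 and adjusted p 0.0361 in limma. The call ended without any single library other than parental library 2 (highest adjusted p = 0.122). Of the 40 nearest tested genes on chromosome 6, 8 were higher and 0 lower, with a median log2 fold change of 0.09. For TRIM14 the 40 nearest on chromosome 9 had 1 higher and 7 lower, with a median of -0.09. Among all tested rows, 7.82% were higher and 8.11% lower. The part of these surroundings in the results was not tested.

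TRIM5, which recognises incoming retroviral capsids, TRIM6 and TRIM34 lie next to each other on chromosome 11. TRIM5 measured 10.3, 9.47 and 10.0 FPKM in ARID1A-deficient libraries, against 8.29, 6.54 and 7.88 FPKM in parental libraries, a log2 fold change of 0.36 that missed the threshold (limma adjusted p = 0.065). TRIM6 measured 0.594, 0.646 and 0.622 FPKM, against 0.403, 0.317 and 0.436 FPKM in parental libraries (limma adjusted p = 0.112). TRIM34 measured 1.91, 1.66 and 1.91 FPKM, against 2.82, 1.78 and 2.64 FPKM in parental libraries, and its groups overlapped. For TRIM5 and TRIM6 every ARID1A-deficient value exceeded every parental value, while TRIM34 had the opposite sign. TRIM22, their interferon-induced neighbour, reached no more than 0.0624 FPKM in any library. TRIM6 and TRIM34 share transcript sequence with a joint TRIM6-TRIM34 row, listed at 0.0566 FPKM in parental library 3 and at 0 elsewhere.

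The ligases of RNA sensors did not pass the test. TRIM25, which ubiquitinates RIG-I, averaged 22.7 ± 1.36 and 27.3 ± 4.89 FPKM in ARID1A-deficient and parental cells (SD, n = 3 each), with overlapping groups and a limma adjusted p of 0.305. Its limma adjusted p was 0.013 without parental library 2 and 0.362 to 0.587 without any other single library. Leaving out parental library 2 also raised the lower count over all tested rows from 1040 to 2097. TRIM4, another RIG-I ligase, measured 11.6, 10.1 and 9.36 FPKM in ARID1A-deficient libraries, against 14.1, 12.4 and 14.7 FPKM in parental libraries. Its groups did not overlap (log2 fold change -0.38, limma adjusted p = 0.0578). TRIM65, a ligase of the sensor MDA5, was the steadiest member within groups, at 18.7 ± 0.490 and 19.6 ± 0.599 FPKM in ARID1A-deficient and parental cells (SD, n = 3 each), which gave a difference of -0.07 on the log2 scale (95% interval -0.24 to 0.10). TRIM21, the cytosolic antibody receptor, had a log2 fold change of 0.10 (95% interval -0.12 to 0.32). TRIM23 and TRIM56 varied within groups by more than the groups differed. TRIM26 and TRIM31 were listed at 0 in every library.

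Of 21 genes listed as sensing partners of these ligases, 18 were tested, 1 rose, 0 fell in limma and 17 did not pass. At an unadjusted p under 0.05 there were 4, beside 29.5% of all tested rows. The gene that rose was DDX58, which encodes RIG-I, at 1.34, 1.30 and 1.01 FPKM in ARID1A-deficient libraries, against 0.503, 0.606 and 0.76 FPKM in parental libraries (log2 fold change 0.45, limma adjusted p = 0.032). The call ended without any single library other than parental library 2 (highest adjusted p = 0.115). IFIH1, which encodes the RNA sensor MDA5, had the opposite sign, at 2.33, 2.32 and 1.89 FPKM, against 4.29, 2.68 and 4.14 FPKM in parental libraries. Its groups did not overlap, and it did not pass (log2 fold change -0.55, limma adjusted p = 0.0645). Its limma adjusted p was 0.00225 without parental library 2 and 0.133 to 0.221 without any other single library. Leaving out parental library 2, quantile normalization and the length covariate each gave 1 lower gene in this list. Over all tested rows the lower counts in these settings were 2097, 1248 and 2295, beside 1040 as fitted. MAVS, the adaptor of both sensors, measured 10.3, 9.85 and 9.63 FPKM, against 12.7, 9.71 and 11.2 FPKM in parental libraries, with overlapping groups. The share called in this list was 5.56%, below the 15.9% of all tested rows.

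Promoter sequences, from 250 bases before to 50 after an annotated start, were matched by symbol in RefSeq (GRCh38.p14) for 51 members, 25 of them tested. TRIM29, TRIM13 and TRIM28 had no promoter entry. They are shown for TRIM47 and TRIM38, which fell and rose, and for TRIM14 and TRIM5, whose promoters both hold the core of the interferon-stimulated response element while their transcripts had opposite signs. Capitals mark the GC box (GGGCGG) in TRIM47, the CCAAT box (CCAAT) in TRIM38 and the response element core (GAAA, any 2 bases, GAAA) in TRIM14 and TRIM5, each searched on both strands. TRIM47 is on the minus strand at chr17:75878532-75878831, TRIM38 on the plus strand at chr6:25962552-25962851, TRIM14 on the minus strand at chr9:98119173-98119472 and TRIM5 on the minus strand at chr11:5685025-5685324, all in GRCh38.p14 and not in the build of the expression files.
TRIM47: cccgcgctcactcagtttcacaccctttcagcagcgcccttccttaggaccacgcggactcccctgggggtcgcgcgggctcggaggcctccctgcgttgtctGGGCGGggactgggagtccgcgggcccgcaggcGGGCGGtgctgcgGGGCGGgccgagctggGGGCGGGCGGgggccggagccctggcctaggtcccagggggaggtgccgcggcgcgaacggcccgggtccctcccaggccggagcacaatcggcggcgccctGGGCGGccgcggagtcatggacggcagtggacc
TRIM38: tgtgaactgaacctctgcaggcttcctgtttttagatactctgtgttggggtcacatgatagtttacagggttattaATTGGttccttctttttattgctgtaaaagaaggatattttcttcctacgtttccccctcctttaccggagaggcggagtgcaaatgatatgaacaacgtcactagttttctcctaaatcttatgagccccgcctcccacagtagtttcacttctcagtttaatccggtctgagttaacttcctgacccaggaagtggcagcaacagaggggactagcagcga
TRIM14: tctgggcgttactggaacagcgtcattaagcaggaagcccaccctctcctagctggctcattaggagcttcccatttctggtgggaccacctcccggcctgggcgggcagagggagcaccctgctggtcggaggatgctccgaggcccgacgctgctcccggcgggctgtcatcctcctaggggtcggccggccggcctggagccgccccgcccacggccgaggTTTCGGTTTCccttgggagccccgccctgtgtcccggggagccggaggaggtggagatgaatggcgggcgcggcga
TRIM5: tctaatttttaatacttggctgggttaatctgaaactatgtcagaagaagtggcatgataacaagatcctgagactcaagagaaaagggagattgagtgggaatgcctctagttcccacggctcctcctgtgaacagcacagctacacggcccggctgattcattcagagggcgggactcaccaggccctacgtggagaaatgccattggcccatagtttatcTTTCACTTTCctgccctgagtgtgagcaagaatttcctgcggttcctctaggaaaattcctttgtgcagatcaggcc
Of the 4, TRIM47 was the richest in GC, at 77.0%, with 36 CG pairs and 6 GC boxes. TRIM38 held 7 CG pairs and no GC box. In TRIM14 and TRIM5 the capitals read TTTCGGTTTC and TTTCACTTTC, the core on the opposite strand, with 16 and 17 bases between it and the start. The core was found in 10 of the 70 promoter entries of these 51 members (14.3%), beside 3.57% of all 35116 promoters searched. The 10 entries belonged to 10 genes, and 7 of those genes were tested. They were TRIM14 and TRIM2, which fell, and TRIM5, TRIM16, TRIM21, TRIM34 and TRIM44, which did not pass. The GC box was found in 50% of member promoters beside 45.0% of all, the CCAAT box in 41.4% beside 34.6%, and the AP-1 motif (TGANTCA) in 12.9% beside 7.71%. A match describes the letters of the window and does not show a bound factor.

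TRIM47, a RING ligase with a SPRY domain, measured 17.2, 17.8 and 20.5 FPKM in ARID1A-deficient libraries, against 27.6, 38.3 and 29.3 FPKM in parental libraries. The groups were well apart, with parental library 2 the highest, and the gene was 1.72-fold lower, with a log2 fold change of -0.74, SE 0.14 and adjusted p 0.0143 in limma. The call ended without ARID1A-deficient library 1 or 2 (adjusted p = 0.0588 and 0.0634). Of its 39 nearest tested genes on chromosome 17, 5 were higher and 1 lower, beside 7.82% and 8.11% of all tested rows. Their median log2 fold change was 0.04.

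**Figure D3:**
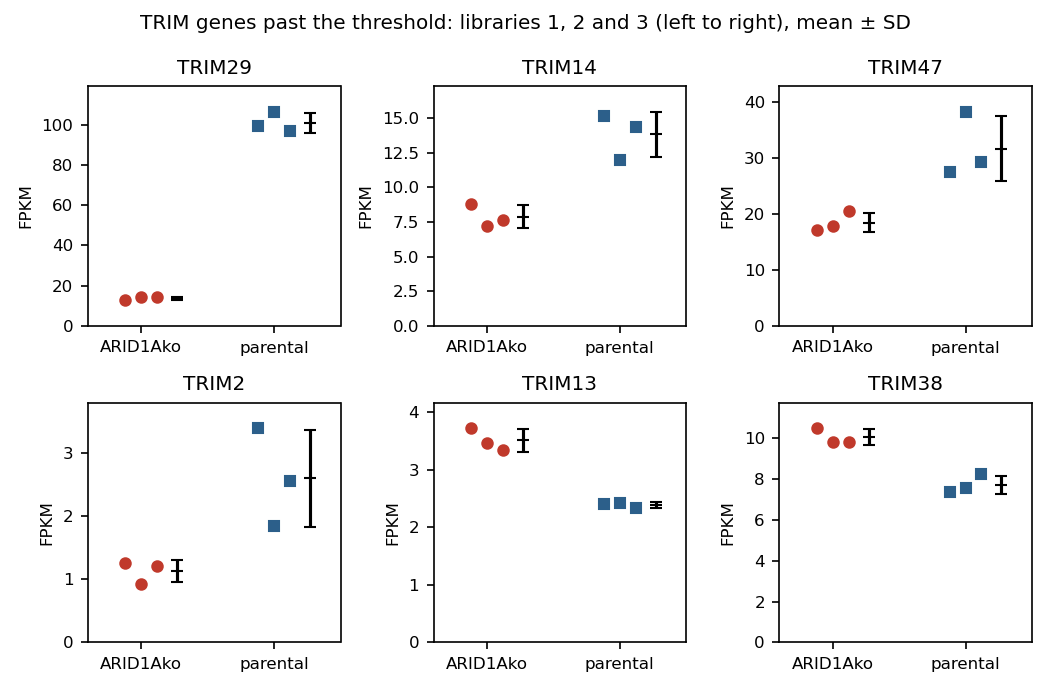
FPKM (vertical axes from 0) of the 6 TRIM genes past the threshold in ARID1A-deficient (circles) and parental (squares) libraries 1, 2 and 3, with mean and SD as a bar beside each group. The groups do not overlap in any panel, and the gap is widest for TRIM29, at 13.7 and 100.9 FPKM.

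Of the 4 members with NHL repeats, which bind RNA or substrate proteins, 3 were tested, 1 fell and 2 did not pass. The share called was 33.3% of only 3 genes, beside 15.9% of all tested rows. TRIM2, a ligase known in mice to act on neurofilament light chain, measured 1.26, 0.932 and 1.22 FPKM in ARID1A-deficient libraries, against 3.40, 1.85 and 2.55 FPKM in parental libraries. It was 2.29-fold lower without overlap, although parental values spread widely, with a log2 fold change of -0.73, SE 0.17 and adjusted p 0.0285 in limma. The call ended without parental library 3 or any 1 ARID1A-deficient library (highest adjusted p = 0.107). TRIM32, a ligase mutated in a limb-girdle muscular dystrophy, averaged 6.39 ± 0.417 and 6.98 ± 0.629 FPKM in ARID1A-deficient and parental cells (SD, n = 3 each). TRIM3 averaged 2.58 ± 0.394 and 2.22 ± 0.303 FPKM in the same order, and TRIM71, a stem cell factor, was listed at 0.

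The nuclear co-regulators of the TIF1 group carry a PHD finger and a bromodomain. All 4 members were tested and none was past the threshold in limma, beside 15.9% of all tested rows. At an unadjusted p under 0.05 there was 1, beside 29.5% of all tested rows. TRIM28, the co-repressor recruited by KRAB zinc finger proteins, measured 259, 313 and 306 FPKM in ARID1A-deficient libraries, against 242, 341 and 248 FPKM in parental libraries. The groups overlapped, with a log2 fold change of 0.09 (95% interval -0.34 to 0.52). TRIM24, a nuclear receptor co-regulator, averaged 3.33 ± 0.437 and 3.55 ± 0.598 FPKM in ARID1A-deficient and parental cells (SD, n = 3 each), and TRIM33, a regulator of SMAD signalling, 5.11 ± 0.843 and 5.44 ± 1.46 FPKM. TRIM66 measured 0.839, 0.884 and 1.03 FPKM in ARID1A-deficient libraries, against 1.44, 1.10 and 1.34 FPKM in parental libraries, without overlap (log2 fold change -0.26, limma adjusted p = 0.134).

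Of 20 heterochromatin partners of TRIM28, 19 were tested, 0 rose in limma, 1 fell and 18 did not pass (5.26% called, beside 15.9% of all tested rows). At an unadjusted p under 0.05 there were 3, beside 29.5% of all tested rows. The gene that fell was HDAC1, a histone deacetylase, at 97.0, 104 and 102 FPKM in ARID1A-deficient libraries, against 129, 145 and 140 FPKM in parental libraries (log2 fold change -0.45, limma adjusted p = 0.0305). That call ended without parental library 3 or any 1 ARID1A-deficient library (highest adjusted p = 0.143). Leaving out parental library 2 gave 2 lower partners, and quantile normalization and the length covariate gave 3 each. Over all tested rows these settings gave 2097, 1248 and 2295 lower, beside 1040 as fitted.

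Among the 21 members outside these role groups, 9 were tested, and TRIM47 was the only one past the threshold. That is 11.1% of the 9, beside 15.9% of all tested rows. TRIM7, which binds glycogenin, measured 68.4, 68.5 and 70.5 FPKM in ARID1A-deficient libraries, against 68.0, 90.9 and 75.3 FPKM in parental libraries, with overlap. TRIM41 measured 34.6, 34.8 and 38.5 FPKM, against 42.2, 39.8 and 40.4 FPKM in parental libraries. Those groups did not overlap (log2 fold change -0.18, limma adjusted p = 0.215). TRIM44, which has a ubiquitin-protease type zinc finger in place of a RING, measured 9.47, 6.78 and 7.57 FPKM, against 14.6, 9.59 and 11.3 FPKM in parental libraries. Its lowest parental value was just above its highest ARID1A-deficient value (log2 fold change -0.51, limma adjusted p = 0.0961). Its limma adjusted p was 0.0125 without parental library 2 and 0.0895 to 0.277 without any other single library. TRIM16 and TRIM16L, near copies whose reads may be split, had log2 fold changes of 0.18 and 0.09. TRIM52, TRIM62 and TRIM68 had log2 fold changes of -0.05, -0.15 and -0.18, and none passed.

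Of 9 relatives of the family with other symbols, 6 were tested and 0 were past the limma threshold, beside 15.9% of all tested rows. At an unadjusted p under 0.05 there was 1, beside 29.5% of all tested rows. PML, the organiser of nuclear bodies, measured 21.5, 26.3 and 25.4 FPKM in ARID1A-deficient libraries, against 27.3, 29.8 and 26.1 FPKM in parental libraries. MID1, a microtubule-bound ligase, measured 1.68, 1.78 and 1.67 FPKM, against 3.02, 2.11 and 2.87 FPKM in parental libraries, without overlap (log2 fold change -0.43, limma adjusted p = 0.0587).

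The microtubule and sarcomere members (7 listed) and the primate-expanded members (9 rows) had none above the testing limit. TRIM46, a microtubule organiser of the axon, measured 0.426, 0.291 and 0.257 FPKM in ARID1A-deficient libraries, against 0.0472, 0.151 and 0.20 FPKM in parental libraries. TRIM36 measured 0.206, 0.106 and 0.333 FPKM, against 0.0928, 0.0593 and 0.0757 FPKM. Both were without overlap, and with no filter on low values their limma adjusted p were 0.0941 and 0.166. The muscle ligases TRIM55 and TRIM63 were listed at 0 in all libraries.

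Members on chromosome 6 stood apart by their zeros. Of 8 members there, 7 were listed at 0 in all 6 libraries, namely TRIM10, TRIM15, TRIM26, TRIM27, TRIM31, TRIM39 and TRIM40, and only TRIM38 had a value. In RefSeq order, 6 of the 7, all but TRIM27, lay in an unbroken run of 35 protein-coding rows at 0. The run also holds TUBB, FLOT1 and ABCF1, genes that cells generally express. Rows at 0 made up 28.0% of the 981 protein-coding rows on chromosome 6 and 16.3% of all 18675 placed protein-coding rows. Whether a value of 0 for these members is a failed estimate was not tested, and their expression cannot be judged from these files.

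Parental library 2 was at one end of its group for nearly all members, which did not hold for ARID1A-deficient library 2. With 3 libraries in a group, any 1 is often at an end, and the share over all tested rows was not counted. Of the 35 tested members, 25 were lowest in parental library 2 and 9 highest, and 15 were lowest and 6 highest in ARID1A-deficient library 2. Of these, 15 were lowest and 5 highest in library 2 of both groups. TRIM56, a ligase of innate immune signalling, showed this most, at 6.26, 3.03 and 4.72 FPKM in ARID1A-deficient libraries 1, 2 and 3, and 8.83, 2.82 and 6.37 FPKM in parental libraries 1, 2 and 3. Library 2 lay 0.68 and 1.16 below the mean of libraries 1 and 3 on the log2 scale in ARID1A-deficient and parental cells. TRIM28 went the other way, 0.15 and 0.47 above. Across the 35 members, the deviation of library 2 had a Pearson's r of -0.511 in ARID1A-deficient cells and -0.449 in parental cells with log2 transcript length, as a description of genes that share libraries. For TRIM29 the deviations were 0.09 and 0.12, small beside its difference between groups.

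**Figure D4:**
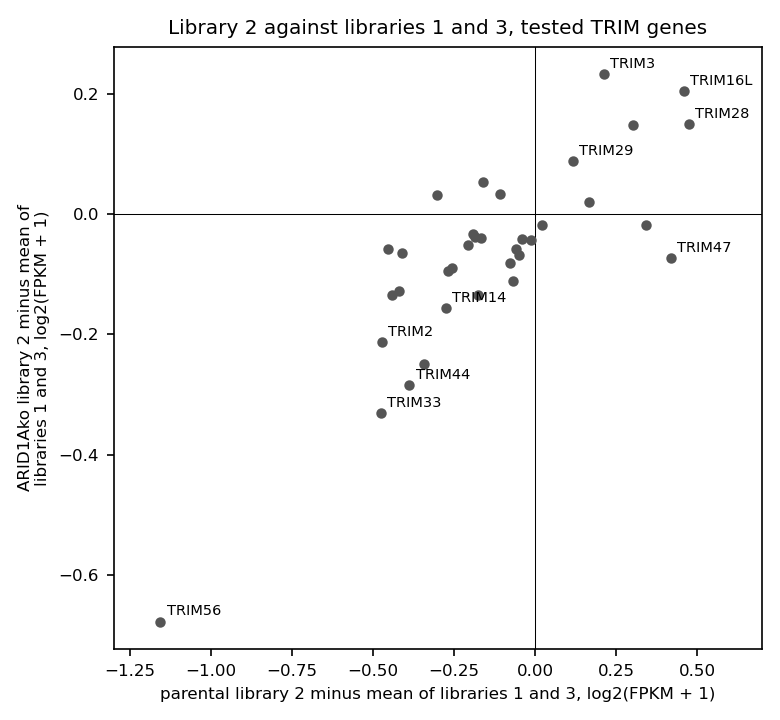
Deviation of library 2 from the mean of libraries 1 and 3 on the log2(FPKM + 1) scale, in ARID1A-deficient cells (vertical axis) and parental cells (horizontal axis), with 1 point for each of the 35 tested TRIM genes. The points run along 1 direction with a Pearson's r of 0.817, beside 0.217 for library 2 over all tested rows. TRIM56 lies lowest in both groups.

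**Figure D5:**
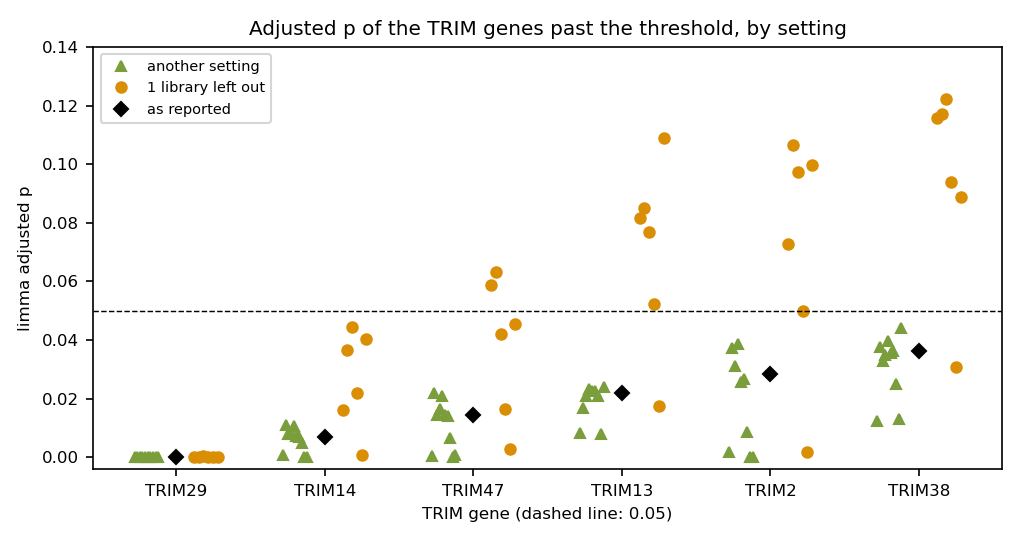
Limma adjusted p (vertical axis) of the 6 TRIM genes past the threshold, as reported (diamond), under other settings (triangles) and with 1 library left out (circles), with 0.05 as a dashed line. TRIM29 and TRIM14 stay below the line throughout, while TRIM13 and TRIM38 rise above it in 5 of 6 cases with a library left out.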

How the data were processed

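FPKM values by gene symbol were deposited by the authors, with a table for each library. The build GRCh37 (hg19) and the tools Cuffdiff 2.2.1.5, Cuffnorm 2.2.1.2 and TopHat2 2.1.1 are named, per the submitters' processing notes. The sources used here state neither the annotation nor how libraries were scaled. Poly(A) RNA was made into libraries with a TruSeq version 2 kit, per the labels' protocols, which does not mark strand.

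Each table held 23273 rows. In 28 of them a date stands in place of the symbol, and these were left out. The 12826 rows averaging 0.5 FPKM or more were fitted with limma 3.58.1 (R 4.3.3) on log2(FPKM + 1), with a mean-variance trend, robust moderation and group as the only term. Tests were two-sided, with Benjamini-Hochberg adjustment over all tested rows, with a threshold of 0.05. Log2 fold changes on this scale understate the change of low genes. Folds are ratios of mean FPKM. With 3 libraries in a group and no fragment totals, precision rests on the spread between libraries.

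The members and the gene lists were chosen with earlier results of these data known. Members past the threshold, TRIM29, the 6 most abundant members and those with non-overlapping groups and a log2 fold change of at least 0.5 in size are given by library, and other members by mean, range or count where the role groups call for them. Members given by library beyond this rule, such as TRIM4, TRIM5, TRIM6, TRIM34, TRIM36, TRIM46, TRIM56 and TRIM66, and genes outside the family below the threshold were chosen after their values were seen. Alternatives were other pseudocounts, filters and scalings, limma without trend, a replicate block, a length covariate and leaving out libraries. The length covariate is a single value for each library, the slope of its deviations on log2 transcript length. Lengths came from GENCODE 29 and covered 96.5% of tested rows. These slopes were estimated from the same expression values that were then fitted. Leaving out library 2 of both groups was added after the data were seen. Neighbours are the 20 tested genes on each side in RefSeq order. Some genes of the lists are not reported here by name.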

Additional observations from a re-analysis of the deposited data

How the results depend on the processing

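Of the TRIM genes past the threshold, TRIM29 and TRIM14 kept their call under all 16 alternatives, and no called member changed sign. Higher members numbered 2, with 1 at a minimum mean of 3 FPKM, 7 with the length covariate, and 0 to 3 with libraries left out. Lower members numbered 4, with 7 under the length covariate and 2 to 8 with libraries left out. Over all tested rows, 1003 were higher and 1040 lower. The higher count was 667 at a minimum mean of 3 FPKM, 1848 with the length covariate and 531 to 1982 with libraries left out. The lower count was 2295 with the length covariate and 433 to 2097 with libraries left out. Quantile normalization gave 1252 higher and 1248 lower rows. Without library 2 of both groups, chosen after the data were seen, there were 3 higher and 7 lower members, and 1733 higher and 1867 lower rows.

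The replicate block gave 4 higher and 6 lower members, adding TRIM5, TRIM11, TRIM4 and TRIM44, and 1861 higher and 2188 lower rows. Under it 5 ductal markers, 5 basal genes, 3 TRIM28 partners and 1 sensing gene were lower. Over all tested rows, deviations of same-numbered libraries correlated at 0.219, 0.217 and -0.0131 for numbers 1, 2 and 3, so not every pair passed 0.1. Numbers 1 and 2 each correlated best with themselves, and number 3 did not. Deviations are taken from the group mean, so these correlations are not independent of each other. They cannot decide whether the numbers pair the samples, and the block is given as an alternative only.

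Members without a call changed sign in some cases. With the length covariate these were TRIM28 (-0.0042), TRIM56 (0.023), TRIM16L (-0.0084), TRIM24 (0.0059) and TRIM33 (0.060). With libraries left out the log2 fold change ran from -0.28 to 0.019 for TRIM37, -0.63 to 0.055 for TRIM56, -0.0041 to 0.24 for TRIM16L, -0.18 to 0.014 for TRIM24 and -0.22 to 0.11 for TRIM33. The cause was not tested. With 3 libraries in a group and no fragment totals, members below 0.5 FPKM could not be compared firmly.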
